A study of Mus musculus with 34 samples.

Results

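The genes described here are 10 efflux transporters that move bile salts, phospholipid, sterols, conjugates and drugs out of liver cells: Abcb11, Abcb4, Abcg5, Abcg8, Abcc2, Abcb1a, Abcb1b, Abcc3, Abcc4 and Slc51b. They were taken by gene name from the 78298 genes of the deposited RNA-seq table, and all 10 were among the 14980 genes that passed a filter on low counts. Bulk RNA was measured in 34 livers of male C57/Bl6 mice aged 8 to 12 weeks. WT mice carried floxed Sirt1 without Cre, and SIRTintKO mice carried the same floxed Sirt1 with a Cre driven by the Villin promoter, which acts in the intestinal epithelium, so the liver was not the organ in which Sirt1 was deleted. Livers were taken from untreated mice (0 h, 6 WT and 6 SIRTintKO) and at 6 h (6 WT and 5 SIRTintKO) and 24 h (4 WT and 7 SIRTintKO) after partial hepatectomy (PHx), in which the left lateral and median lobes were removed. Groups follow the labels of the deposited libraries. The paper states other sizes for the WT groups after PHx, 5 at 6 h and 5 at 24 h. By library number, WT liver 6 at 6 h stands among the livers at 24 h, apart from the rest of its group. Whether its time label is right was not tested, and the label was kept. The livers at 24 h form an earlier and a later run of library numbers, with the other livers at 6 h between them. SIRTintKO livers 1 to 4 and WT liver 1 are in the earlier run. Whether the runs were handled apart is not stated.

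Hepatocytes secrete bile across their canalicular membrane. Abcb11 (BSEP) is the bile salt pump, Abcb4 (MDR2) turns phosphatidylcholine to the outer leaflet for bile, Abcg5 and Abcg8 form 1 sterol exporter, Abcc2 (MRP2) exports bilirubin glucuronide and glutathione conjugates, and Abcb1a and Abcb1b are the rodent P-glycoproteins that export drugs and other hydrophobic compounds. On the basolateral side, Abcc3 (MRP3), Abcc4 (MRP4) and the heteromer of Slc51a and Slc51b (OSTα and OSTβ) return bile acids and conjugates to blood, and these carriers are known to rise when bile acids accumulate in the liver.

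Library totals ranged from 14892098 to 23480480 counts by the files and overlapped between groups, with group medians from 15138003 to 18118448. Values below are CPM, counts per 1000000 of the library after TMM scaling, and a gene is said to have risen or fallen only at a Benjamini-Hochberg adjusted p under 0.05 over all 14980 genes by edgeR's quasi-likelihood test. Hepatic Sirt1 lay between 6.92 and 23.1 CPM in all livers, with overlapping groups, and does not check an intestinal deletion. The summed level of 7 hepatocyte markers was 40851 CPM or more in every liver. Its medians were 85377 (WT) and 88508 CPM (SIRTintKO) at 0 h and 68384 and 72761 CPM at 6 h. At 24 h the 4 WT livers lay between 40851 and 55502 CPM (median 45922) and the 7 SIRTintKO livers between 47437 and 87925 (median 64323). Like Abcb11, Abcc2 and Abcg8, this sum was lower after PHx than at 0 h in WT livers. From 6 to 24 h its WT median was lower still, as was that of Abcc2 (158 to 147 CPM). The WT medians went from 195 to 304 CPM for Abcb11 and from 39 to 47.7 CPM for Abcg8. None of these transporters passed the test from 6 to 24 h in WT livers (adjusted p = 0.596 for Abcc2, 0.15 for Abcb11 and 0.557 for Abcg8). The sum also moved with the differences between genotypes at 24 h. Its part in these falls and differences was not tested. The libraries at 0 h are numbered in a series of their own in the labels, so a change after PHx and a difference between those series cannot be told apart. In bulk RNA, fewer cells of a type and less RNA per cell cannot be told apart either.

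Livers of some groups stood apart from each other. On the first principal component of all genes' deviations from their group means (21.3% of the variance), WT livers 1 and 2 at 24 h had scores of -53.7 and -77.2, and WT livers 3 and 4 had 61.1 and 69.8. The 7 cholangiocyte markers summed to 105 and 135 CPM in WT livers 1 and 2 at 24 h and to 25.6 and 32.2 CPM in livers 3 and 4. Among these markers Sox9 had a median of 7.81 CPM over all libraries and a highest value of 110 CPM. Only the sum of WT liver 2 at 24 h is large enough to hold that value, so the sum there was mostly 1 gene. The 5 neutrophil markers summed to 84.2 and 60.8 against 11.8 and 6.12 CPM, with Mpo at 0 in 20 of the 34 libraries. The 6 sinusoidal endothelium markers summed to 32.9 and 39.5 against 82.8 and 68.3 CPM. WT liver 6 at 6 h, whose library number lies among those of 24 h, had a neutrophil sum of 54.8 CPM. The other WT livers at 6 h had 4.84 to 13.5 CPM. Its level of the water channel Aqp8 was 4.12 CPM, beside 1.47 to 5.49 CPM in those livers. In WT livers at 24 h Aqp8 lay between 12 and 34.7 CPM. SIRTintKO liver 5 at 24 h had a score of 65.1, the lowest cholangiocyte sum of its group (25.9 CPM) and the lowest neutrophil sum (19.3 CPM). These lists and the first component moved with several transporters described below. Over the 34 livers, deviations of Abcb11 and Abcc2 had r = 0.62 and 0.56 with the first component and -0.63 and -0.55 with the cholangiocyte sum. Those of Abcb1a and Slc51b had the opposite signs. Deviations of Abcc4 had r = 0.59 with the endothelium sum. These r are a description, and the part of the lists and the component in the results below was not tested.

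**Figure D1:**
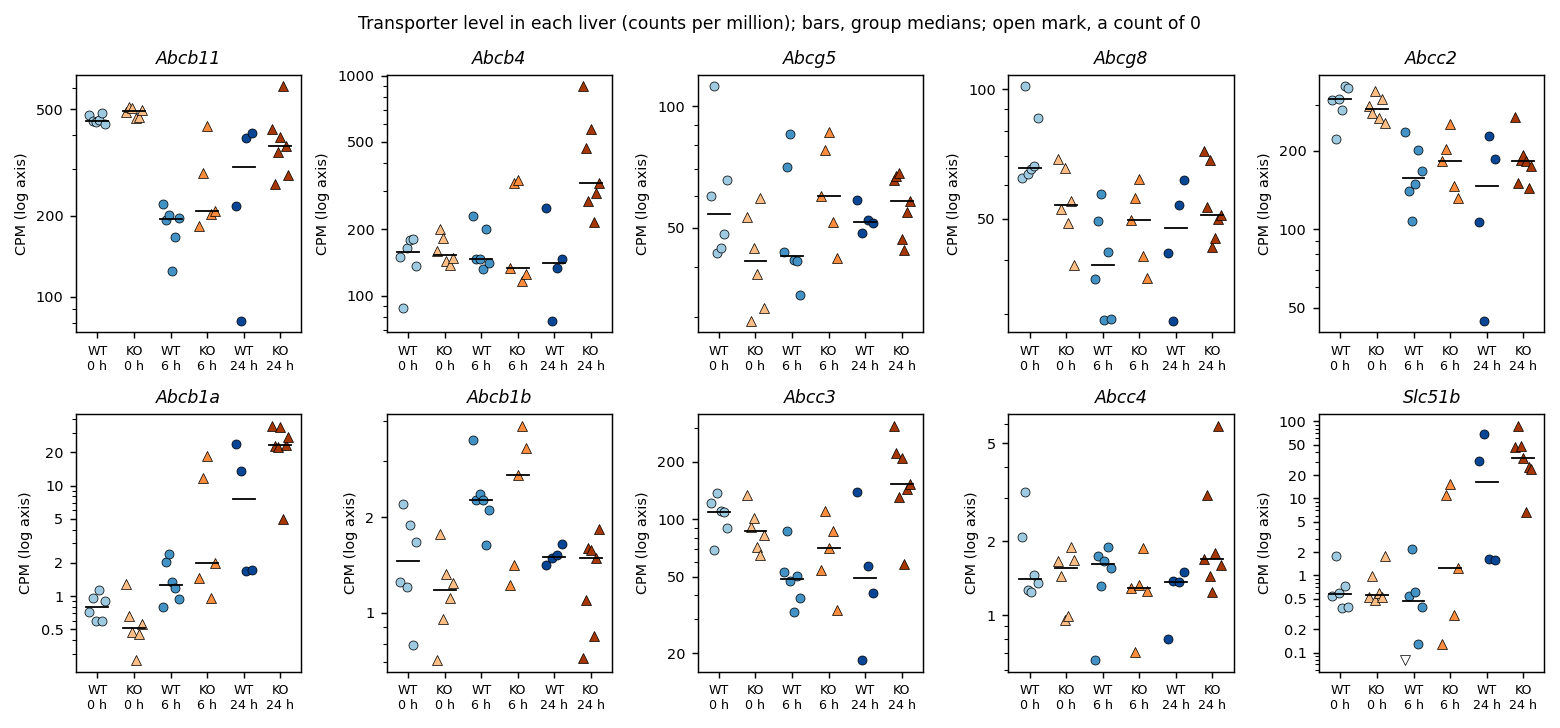
Level of each transporter in each liver, in CPM on a log axis, by genotype and hours after PHx (KO, SIRTintKO). Circles are WT livers, triangles are SIRTintKO livers, bars are group medians, and the open mark is the WT liver at 6 h with a Slc51b count of 0. The Abcb1a values of the WT livers at 24 h and of the SIRTintKO livers at 6 h lie in 2 separate ranges.

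Abcb11, the bile salt pump, was the most even of the 10 between untreated livers and fell after PHx. In untreated WT livers it lay between 440.4 and 482 CPM with a median of 453, and in untreated SIRTintKO livers between 462 and 509.9 with a median of 492. At 6 h it lay between 125 and 222 CPM in WT livers, with a median of 195, below every untreated liver. The 5 SIRTintKO livers at 6 h had 184, 289, 431, 204 and 209 CPM, of which liver 3 came close to the untreated range. Abcb11 fell by 1.31 ± 0.25 (log2 fold change ± SE) in WT livers at 6 h (adjusted p = 0.00011) and by 0.89 ± 0.26 in SIRTintKO livers (adjusted p = 0.00757). At 24 h the 4 WT livers had 218, 81.5, 390.1 and 406 CPM, and the 7 SIRTintKO livers had a median of 366 CPM between 263 and 608. WT livers 3 and 4 were nearer to the untreated range than livers 1 and 2. The fall in WT livers at 24 h was 0.74 ± 0.28 (adjusted p = 0.0393), and in SIRTintKO livers the log2 fold change was -0.35 ± 0.24 (adjusted p = 0.217). The call in WT livers at 24 h was lost without any 1 of WT livers 1, 3, 4 and 5 at 0 h or without WT liver 1 or 2 at 24 h, with log2 fold changes between -0.99 and -0.44 over all libraries left out in turn.

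Abcb4, the phospholipid floppase, did not fall with Abcb11. It lay between 88.1 and 182 CPM in untreated WT livers (median 157) and between 138 and 202 in untreated SIRTintKO livers (median 153). At 6 h the WT livers lay between 132 and 229 CPM (median 147), and the SIRTintKO livers had 134, 326, 335, 117 and 125. SIRTintKO livers 2 and 3 at 6 h stood above all untreated livers and the other 3 below most of them. By 24 h the WT livers had 249, 77, 133 and 148 CPM. SIRTintKO livers at 24 h had 895, 469, 269, 575, 216, 292 and 326 CPM, each above every untreated liver, and of the WT livers at that time only liver 1 reached their range. In SIRTintKO livers Abcb4 rose at 24 h by 1.42 ± 0.30 over 0 h (adjusted p = 0.000289) and by 1.07 ± 0.32 over 6 h (adjusted p = 0.0131). The call over 6 h was lost with only the groups compared in the fit (adjusted p = 0.0683). In WT livers the log2 fold change at 24 h was 0.02 ± 0.34 (adjusted p = 0.976).

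Abcc2, the exporter of conjugates on the same membrane, fell in both genotypes and at both times. The untreated WT livers lay between 222 and 354 CPM (median 315) and the untreated SIRTintKO livers between 255 and 340 (median 288). At 6 h the WT livers lay between 107 and 236 CPM with a median of 158, and the SIRTintKO livers had 183, 204, 253, 147 and 132 CPM. The WT livers at 24 h had 107, 44.6, 228 and 186 CPM, and the SIRTintKO livers lay between 144 and 271 with a median of 182. The 24 h values of SIRTintKO livers lay below the untreated ones except for liver 1. The falls were 0.88 ± 0.24 (WT, adjusted p = 0.00453) and 0.67 ± 0.25 (SIRTintKO, adjusted p = 0.0361) at 6 h. At 24 h they were 1.12 ± 0.28 (WT, adjusted p = 0.00258) and 0.66 ± 0.23 (SIRTintKO, adjusted p = 0.0179). The SIRTintKO call at 6 h was lost without any 1 of SIRTintKO livers 1 and 3 at 0 h or 4 and 5 at 6 h, with log2 fold changes between -0.81 and -0.61, and in a fit without the filter on low counts (adjusted p = 0.0622).

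Abcg5 and Abcg8 encode the 2 subunits of the sterol exporter and lie head to head. The stretch between the annotated start of Abcg5 and the nearer of 2 annotated starts of Abcg8 is shown because the pair varied together most steadily (below). It is given from RefSeq for the build GRCm38.p6 at chr17:84683012-84683120, on the plus strand, which is the strand of Abcg8. It lies upstream of the Abcg5 start and of that Abcg8 start. The motifs searched here (below) have 0 matches in it, so no letters are in capitals.
Abcg5-Abcg8 interval: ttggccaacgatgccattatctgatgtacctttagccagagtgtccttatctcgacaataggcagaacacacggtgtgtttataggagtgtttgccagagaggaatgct

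In untreated WT livers Abcg8 lay between 62.2 and 102 CPM (median 65.7) and Abcg5 between 43.2 and 112 (median 54). In untreated SIRTintKO livers Abcg8 lay between 39 and 68.7 CPM (median 53.8) and Abcg5 between 29.4 and 59.3 (median 41.4). WT liver 2 at 0 h was the highest of all 34 livers for both genes. At 6 h Abcg8 lay between 29 and 57 CPM (median 39) in WT livers, all below the untreated WT range, and Abcg5 between 34 and 85.3 (median 42.5). The SIRTintKO livers at 6 h had 49.8, 55.9, 61.9, 40.8 and 36.4 CPM of Abcg8, and 59.7, 77.8, 86.3, 51.6 and 41.9 CPM of Abcg5. The 4 WT livers at 24 h had 41.6, 29, 53.8 and 61.6 CPM of Abcg8 and 58.5, 48.6, 52.2 and 51.3 CPM of Abcg5, so the low values of liver 2 for Abcg8 had no counterpart of that size in Abcg5. The SIRTintKO livers at 24 h had a median of 51 CPM of Abcg8 (42.9 to 71.9) and 58.1 CPM of Abcg5 (44 to 68.3). Abcg8 fell in WT livers by 0.87 ± 0.19 at 6 h (adjusted p = 0.000563) and by 0.67 ± 0.22 at 24 h (adjusted p = 0.0164), and the latter call was lost without WT liver 1 or 2 at 24 h (log2 fold changes between -0.84 and -0.50 over the libraries left out). Its log2 fold changes in SIRTintKO livers were -0.17 ± 0.20 at 6 h (adjusted p = 0.534) and -0.01 ± 0.18 at 24 h (adjusted p = 0.973). Abcg5 passed the test in neither genotype at either time. The change at 6 h differed between genotypes by 0.71 ± 0.27 for Abcg8 and 0.81 ± 0.33 for Abcg5 (SIRTintKO minus WT, unadjusted p = 0.0149 and 0.0206 by edgeR's quasi-likelihood test), and both had an adjusted p of 1.

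The P-glycoprotein genes Abcb1a and Abcb1b lie in a row with Abcb4, and their levels took different courses. Abcb1a was low in untreated livers, between 0.594 and 1.13 CPM in WT (median 0.807) and between 0.265 and 1.3 CPM in SIRTintKO (median 0.518). At 6 h the WT livers lay between 0.802 and 2.43 CPM (median 1.26). The 5 SIRTintKO livers at 6 h had 1.48, 11.8, 18.5, 0.971 and 1.98 CPM, so livers 2 and 3 stood far above the other 3, which lay within the WT range. At 24 h the 4 WT livers had 23.9, 13.5, 1.68 and 1.74 CPM, again in 2 ranges. The SIRTintKO livers at 24 h had 34.9, 22.7, 22.5, 33.7, 4.97, 23.2 and 27.7 CPM, of which only liver 5 lay below the range of WT livers 1 and 2. Abcb1a rose in SIRTintKO livers at 6 h by 3.45 ± 0.71 (adjusted p = 0.000286). The log2 fold change in WT livers at 6 h was 0.83 ± 0.70 (adjusted p = 0.372). It passed with only the groups compared in the fit (0.86, adjusted p = 0.0296). At 24 h Abcb1a rose by 3.61 ± 0.70 in WT livers (adjusted p = 0.000235) and by 5.26 ± 0.70 in SIRTintKO livers (adjusted p = 6.09e-07). Without SIRTintKO liver 3 at 6 h or WT liver 1 at 24 h these rises stayed past the test, and the lowest values with any 1 library left out were 2.67 (SIRTintKO, 6 h), 2.78 (WT, 24 h) and 5.08 (SIRTintKO, 24 h). The SIRTintKO livers at 6 h and the WT livers at 24 h each hold 2 high livers. Leaving out 1 keeps the other, so this cannot show whether those 2 calls rest on the high pair. The rise in WT livers from 6 to 24 h (2.78 ± 0.67, adjusted p = 0.0045) was lost without WT liver 1 at 24 h (adjusted p = 0.0617).

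Abcb1b, the P-glycoprotein gene next to it, was also low in untreated livers and stayed low at 24 h. It lay between 0.792 and 2.2 CPM in untreated WT livers (median 1.46) and between 0.71 and 1.77 in untreated SIRTintKO livers (median 1.18). At 6 h the WT livers lay between 1.63 and 3.5 CPM (median 2.27), and the SIRTintKO livers had 1.22, 1.41, 2.7, 3.88 and 3.29. SIRTintKO liver 2, with high Abcb1a, was thus among the lowest for Abcb1b, and liver 4, with the lowest Abcb1a, was the highest. At 24 h the WT livers had 1.41, 1.49, 1.52 and 1.64 CPM, without the split seen in Abcb1a, and the SIRTintKO livers lay between 0.723 and 1.83 (median 1.49). Abcb1b rose in SIRTintKO livers at 6 h by 1.08 ± 0.29 (adjusted p = 0.00435) and fell from 6 to 24 h by 0.92 ± 0.28 (adjusted p = 0.0131). That fall was lost without SIRTintKO liver 4 or 5 at 6 h, with log2 fold changes between -1.08 and -0.70. In WT livers at 6 h the log2 fold change was 0.64 ± 0.28 (adjusted p = 0.0677), and it passed with only the groups compared in the fit (0.67, adjusted p = 0.0392).

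The transcripts of the 2 genes are alike, so reads can be shared between them by the estimate. Of the 31-base words in GENCODE vM21 transcripts of Abcb1a, 21.7% also occur in those of Abcb1b, and 4.02% occur in those of Abcb4. The expected counts were not whole numbers (beyond a tolerance of 0.01) in 28 of 34 libraries for Abcb1a, 29 for Abcb1b and 11 for Abcb4, which makes the split between Abcb1a and Abcb1b uncertain. Their upstream sequences are shown because neighbouring genes of similar product differed in course, with that of Slc51b for comparison. They are the 250 bases before the annotated start from RefSeq (GRCm38.p6), on each gene's strand, at chr5:8566841-8567090 (plus) for Abcb1a, chr5:8797897-8798146 (plus) for Abcb1b and chr9:65422774-65423023 (minus) for Slc51b. Capitals mark motif matches (below).
Abcb1a upstream: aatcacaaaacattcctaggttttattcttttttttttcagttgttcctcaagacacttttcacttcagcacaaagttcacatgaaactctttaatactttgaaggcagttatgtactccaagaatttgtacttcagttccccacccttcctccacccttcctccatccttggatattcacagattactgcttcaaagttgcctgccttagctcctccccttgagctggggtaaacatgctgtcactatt
Abcb1b upstream: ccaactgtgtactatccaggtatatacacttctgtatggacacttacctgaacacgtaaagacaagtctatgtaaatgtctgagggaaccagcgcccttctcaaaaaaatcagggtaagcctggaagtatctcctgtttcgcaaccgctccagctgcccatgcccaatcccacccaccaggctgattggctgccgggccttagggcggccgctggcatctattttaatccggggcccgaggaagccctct
Slc51b upstream: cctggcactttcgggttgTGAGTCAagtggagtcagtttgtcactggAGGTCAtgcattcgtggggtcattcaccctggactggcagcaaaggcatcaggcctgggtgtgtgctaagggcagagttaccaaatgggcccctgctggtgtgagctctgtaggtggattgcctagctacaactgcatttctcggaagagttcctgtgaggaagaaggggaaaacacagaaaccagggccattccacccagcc

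The Abcb1a and Abcb1b windows share 136 bases in 288 aligned columns (47.2%), close to the 44.5% between Abcb1a and the unrelated Slc51b window. Motifs were searched on both strands of the 250 bases upstream of each start. The nuclear receptor site AGGTCA was in the windows of Abcb11, Abcc2 and Slc51b, and in 14% of all 32851 promoters. The AP-1 site TGANTCA was in that of Slc51b and in 6.75% of all promoters. The core of the antioxidant response element, TGACNNNGC, was in those of Abcc2 and Abcc4, and in 10.2% of all promoters. An inverted repeat of AGGTCA with 1 base between, known as the IR-1 site of the bile acid receptor, was in 0 of the 11 windows found for 9 of the 10 genes, and in 0.00609% of all promoters. A match describes letters only.

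Slc51b, the small subunit of the basolateral bile acid exporter, went from near the detection limit to over 20 CPM in most livers at 24 h. It lay between 0.377 and 1.79 CPM in untreated WT livers (median 0.569) and between 0.478 and 1.8 in untreated SIRTintKO livers (median 0.564). At 6 h the WT livers lay between 0 and 2.18 CPM (median 0.464), where the count of 0 in liver 1 allows up to 0.219 CPM by a floor of 3 counts. SIRTintKO livers at 6 h had 0.128, 11.2, 15.3, 0.303 and 1.26 CPM, with livers 2 and 3 high as for Abcb1a. At 24 h the WT livers had 30.8, 67.9, 1.62 and 1.59 CPM, and the SIRTintKO livers had 46.7, 88.2, 47.8, 33.9, 6.66, 25.9 and 24.3 CPM. The livers that were low for Abcb1a at 24 h, WT livers 3 and 4 and SIRTintKO liver 5, were also the lowest for Slc51b. Slc51b rose at 24 h by 5.07 ± 0.98 in WT livers (adjusted p = 0.000225) and by 5.55 ± 0.95 in SIRTintKO livers (adjusted p = 1.9e-05). Its rise at 6 h in SIRTintKO livers, 2.76 ± 0.95 (adjusted p = 0.021), rested on livers 2 and 3. It was lost without either, where the lowest log2 fold change was 1.93 and the highest adjusted p 0.129, and with the replicate number as a block (2.18, adjusted p = 0.0694). Slc51a, which encodes the other subunit of the heteromer, had a count of 0 or 1 in each library and of 0 in 31 of 34.

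Abcc3, which exports conjugates to blood, fell early in WT livers and was high at 24 h in SIRTintKO livers. The untreated livers lay between 69 and 138 CPM in WT (median 109.7) and between 65 and 133 in SIRTintKO (median 86.7). At 6 h the WT livers lay between 32.9 and 87.2 CPM (median 48.9), and the SIRTintKO livers had 54.3, 109.9, 70.4, 87.1 and 33.4. At 24 h the WT livers had 139, 18.4, 57.2 and 41.2 CPM, of which liver 1 lay above the untreated WT range. SIRTintKO livers at 24 h had 308, 223, 130.5, 209, 58.5, 144 and 154 CPM, with liver 5 alone below the untreated range. Abcc3 fell by 1.04 ± 0.35 in WT livers at 6 h (adjusted p = 0.0203) and rose by 0.95 ± 0.34 in SIRTintKO livers at 24 h over 0 h (adjusted p = 0.0217) and by 1.30 ± 0.37 over 6 h (adjusted p = 0.00912). The rise over 0 h was lost without SIRTintKO liver 4 or 5 at 0 h or liver 1 at 24 h, with log2 fold changes between 0.73 and 1.09.

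Abcc4, another basolateral exporter, was scarce in every group and passed the test in no comparison. Its range was 1.24 to 3.17 CPM in WT (median 1.4) and 0.955 to 1.9 CPM in SIRTintKO livers at 0 h (median 1.55), and 0.656 to 1.89 CPM in WT livers at 6 h (median 1.61). The SIRTintKO livers at 6 h had 1.28, 0.704, 1.32, 1.88 and 1.26 CPM, and the WT livers at 24 h had 0.799, 1.37, 1.36 and 1.49. The SIRTintKO livers at 24 h lay between 1.25 and 5.91 CPM (median 1.69), of which livers 2 and 6 stood above the rest. The log2 fold change at 24 h in SIRTintKO livers was 0.73 ± 0.32 over 0 h (adjusted p = 0.0569) and 0.89 ± 0.34 over 6 h (adjusted p = 0.0521). DESeq2 put both past the threshold (adjusted p = 0.0498 and 0.0376). In edgeR, 2 other scalings of the libraries put that over 6 h past it as well (adjusted p = 0.0474 and 0.0448).

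**Figure D2:**
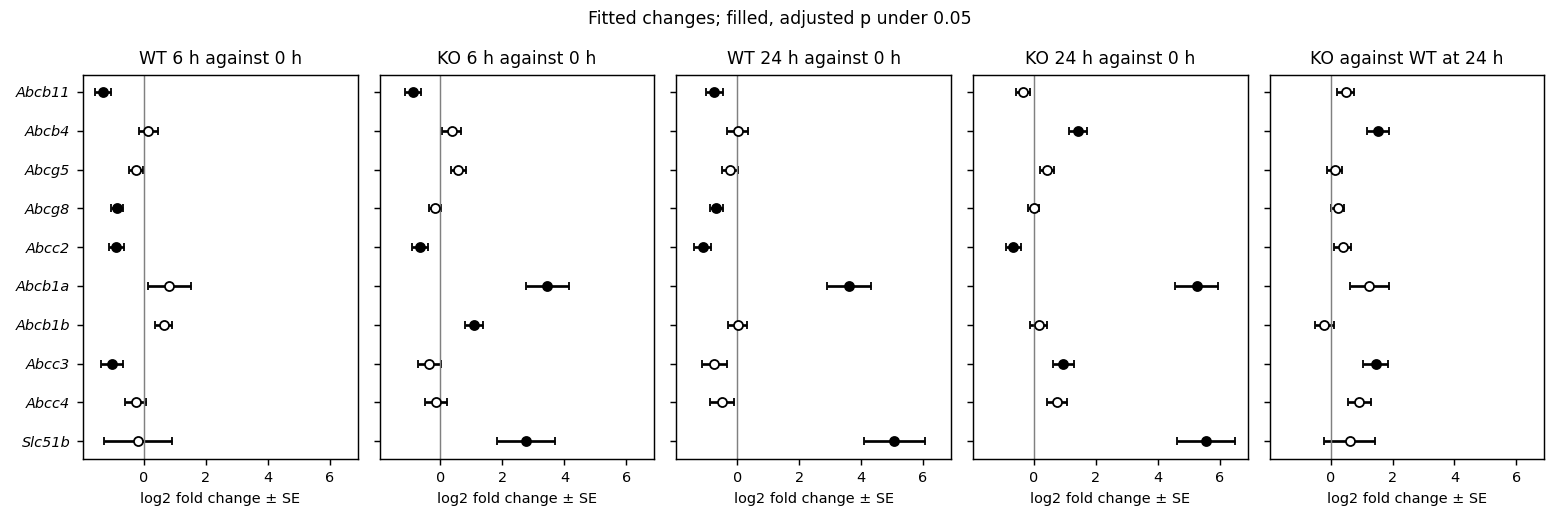
Fitted log2 fold changes with their SE for the 10 transporters in 5 comparisons (KO, SIRTintKO). Filled marks had an adjusted p under 0.05 over all genes by edgeR. Abcb1a and Slc51b had the largest fitted rises at 24 h, above 3 in each genotype, and between genotypes only Abcb4 and Abcc3 are filled.

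By count, 4 of the 10 transporters fell and 0 rose in WT livers at 6 h, beside 37.4% of all tested genes past the test in either direction. In SIRTintKO livers at 6 h, 3 rose and 2 fell (38.4% of all genes past the test). At 24 h, 2 rose and 3 fell in WT livers (34.1%), and 4 rose and 1 fell in SIRTintKO livers (50.2%). From 6 to 24 h, 2 rose in WT livers (16.5%), and 4 rose and 1 fell in SIRTintKO livers (27.6%). Shares of 4 or 5 in 10 against 0 h are near those of all genes. The median log2 fold change of the 10 at 24 h was -0.36 in WT livers and 0.58 in SIRTintKO livers, beside 0.02 and 0.04 over all tested genes. Both comparisons have their own livers at 0 h. The study's further threshold, an absolute log2 fold change over 1, left 2 (WT, 6 h), 3 (SIRTintKO, 6 h), 3 (WT, 24 h) and 3 (SIRTintKO, 24 h) of these calls.

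Between genotypes, 2 of the 10 transporters were higher in SIRTintKO livers at 24 h, Abcb4 and Abcc3, where 5.81% of all genes passed the test. The mean of Abcb4 was 434 ± 238 CPM (SD, n = 7) in SIRTintKO and 152 ± 71.9 CPM (SD, n = 4) in WT livers, a fitted difference of 2.86-fold (log2 1.52 ± 0.35, adjusted p = 0.0146). Abcc3 had 175 ± 79.8 against 63.9 ± 52.5 CPM, a difference of 2.74-fold (log2 1.45 ± 0.40, adjusted p = 0.03). The groups overlapped for both, since WT liver 1 lay within the SIRTintKO range. WT liver 1 and SIRTintKO livers 1 to 4 are of the earlier run of library numbers at 24 h (above). For both genes WT liver 1 was the highest WT liver. SIRTintKO livers 1, 2 and 4 were the 3 highest of theirs, and liver 3 was not above all of the later run. The runs hold the genotypes in unlike shares, and their part in these differences was not tested. With only these 11 livers in the fit, neither passed (adjusted p = 0.259 and 0.296), and 0 genes of any kind did. The Abcc3 call was also lost without any 1 of WT livers 2, 3 and 4 or SIRTintKO livers 1 and 2 at 24 h (log2 1.14 to 2.15, highest adjusted p 0.092), whereas that of Abcb4 passed with each library left out (highest adjusted p 0.0466).

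The other 8 transporters did not pass between genotypes at 24 h. Abcb1a had a log2 difference of 1.25 (95% interval -0.02 to 2.53, adjusted p = 0.222), Abcc4 one of 0.93 (0.17 to 1.68, adjusted p = 0.123) and Abcb11 one of 0.48 (-0.07 to 1.03, adjusted p = 0.281). Slc51b, with 39.1 ± 25.9 CPM in SIRTintKO and 25.5 ± 31.5 CPM in WT livers, had an interval from -1.04 to 2.27. At 0 h, 0 transporters passed with 0% of all genes. An unadjusted p under 0.05 was reached by 2, beside 1.07% of all genes. They were Abcg5 (-0.54 ± 0.23) and Abcg8 (-0.43 ± 0.19), both lower in SIRTintKO livers. At 6 h, 0 passed with 0% of all genes, and 2 had an unadjusted p under 0.05, beside 6.52% of all genes. They were Abcb1a (2.23 ± 0.65) and Slc51b (3.07 ± 0.98), both through SIRTintKO livers 2 and 3. The differences between genotypes in the change from 0 h passed for 0 transporters at 6 h (0% of all genes). For the change to 24 h, 0 passed as well (0.00668% of all genes). An unadjusted p under 0.05 was reached by 3 transporters at 6 h (3.05% of all genes) and by 4 at 24 h (12.7%). At 24 h these were Abcc3 (1.68 ± 0.53, adjusted p = 0.194), Abcb4 (1.41 ± 0.46, adjusted p = 0.211), Abcc4 (1.22 ± 0.50, adjusted p = 0.3) and Abcg8 (0.66 ± 0.28, adjusted p = 0.321). Without WT liver 1 at 24 h that of Abcc3 was 2.37 (adjusted p = 0.0244), and without SIRTintKO liver 5 it was 1.83 (adjusted p = 0.0485). A difference in the rise between genotypes was therefore not shown for Abcb4 or for Abcc3. That of Abcc3 passed only when 1 of these 2 livers was left out.

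How the transporters varied together between livers of a group was measured on deviations of log2 CPM from the group mean, over all 34 livers, for 45 pairs. After adjustment over the 45, 6 pairs had a permutation p under the threshold, each with a positive r. None of the pairs with a negative r passed in that test, but 2 did under alternatives. Abcb4 with Abcc4 passed with deviations divided by the SD of the group (r = -0.53, permutation adjusted p = 0.0235) and without the SIRTintKO livers at 24 h (r = -0.60, permutation adjusted p = 0.0196). Abcc2 with Slc51b passed in the 18 livers at 0 h and WT at 6 h (r = -0.91, permutation adjusted p = 0.00292), a set chosen after seeing the data. Pearson's r was at least 0.5 in 6 pairs (13.3%), against 4.19% of the 112192710 pairs of tested genes. These are not all the same 6 pairs. Abcb4 with Abcb1a reached 0.5 and did not pass (permutation adjusted p = 0.162), and Abcg5 with Abcb1a passed with a lower r. The count also holds Abcb1a with Slc51b, whose values fell in separate ranges (below).

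Abcg5 and Abcg8, the 2 subunits of 1 exporter, had r = 0.75 and rho = 0.77 (permutation p = 1e-05 for each, the smallest that 100000 permutations give, adjusted p = 0.00045). Without the 2 livers farthest from the median of Abcg5, r was 0.69. Within single groups r was 0.90 in WT livers at 0 h, 0.64 in SIRTintKO livers at 0 h, 0.90 in WT livers at 6 h and 0.84 in SIRTintKO livers at 24 h. Single groups of 6 or 7 livers gave no call over the 180 tests of pairs in a group (the smallest adjusted p of an exact permutation test was 0.321, and 23 tests had an unadjusted p under 0.05). The relation passed under every alternative tried, including the 25 livers that are neither WT at 24 h nor SIRTintKO at 6 h (r = 0.82).

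Abcb4 and Abcc3, on opposite sides of the hepatocyte, had r = 0.74 and rho = 0.72 (permutation adjusted p = 0.0027 and 0.00135). Without the 2 livers farthest from the median of Abcb4 r was 0.75, and it was also 0.75 without the WT livers at 24 h and the SIRTintKO livers at 6 h. The relation was closest in the SIRTintKO livers at 24 h (r = 0.90, rho = 0.96, exact permutation p = 0.00575 and 0.00278, adjusted p = 0.321 for r), where liver 1 was highest and liver 5 lowest for both. In the other groups of 6 livers r was 0.84 (WT, 0 h), 0.49 (SIRTintKO, 0 h) and 0.25 (WT, 6 h). Over those 18 livers alone r was 0.50 and did not pass. Deviations of Abcb4 had r = -0.55 with those of the total count of the library, and those of Abcc3 had r = -0.32, both given as a description over the 34 livers. The parts of depth and of the runs of library numbers at 24 h in the pair were not tested.

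Abcb4 and Abcc2 had r = 0.55 and rho = 0.59 (permutation adjusted p = 0.0307 and 0.0168). Without the 2 livers farthest from the median of Abcb4 r was 0.47, and without the WT livers at 24 h and the SIRTintKO livers at 6 h it was 0.61. The call was lost without the 2 farthest livers, without the SIRTintKO livers at 24 h, with the hepatocyte marker level regressed out, and in the 18 livers at 0 h and WT at 6 h. It was also lost without any 1 of 6 livers (WT liver 2 at 0 h, WT liver 1 and SIRTintKO liver 3 at 6 h, and WT livers 2 and 4 and SIRTintKO liver 1 at 24 h), with r between 0.46 and 0.63 over all libraries left out in turn. Abcb11 and Abcc2 had r = 0.75 (permutation adjusted p = 0.0307) and rho = 0.53 (adjusted p = 0.0791). That relation rested on the groups whose livers stood apart: without the WT livers at 24 h and the SIRTintKO livers at 6 h r was 0.24, and within groups of at least 6 livers it lay between 0.11 and 0.39. Its call was lost without any 1 of the 4 WT livers at 24 h, WT liver 1 at 6 h or SIRTintKO liver 3 at 6 h (r between 0.52 and 0.81 over all libraries left out). In the WT livers at 24 h both genes were low in livers 1 and 2 and high in livers 3 and 4. Abcb11 and Abcb4, the bile salt and phospholipid exporters of the canaliculus, had r = 0.37 and rho = 0.46 (permutation adjusted p = 0.313 and 0.169).

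**Figure D3:**
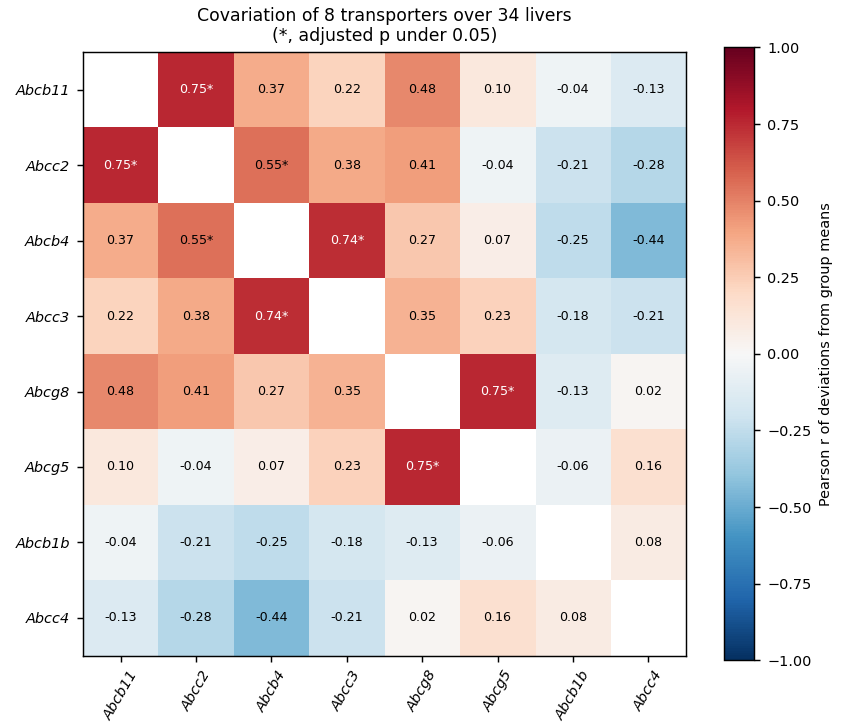
Pearson's r over 34 livers between deviations from the group mean of log2 CPM for 8 transporters. Stars mark a permutation adjusted p under 0.05 over all 45 pairs. Abcg5 with Abcg8, Abcb4 with Abcc3 and Abcb11 with Abcc2 reached at least 0.74. Abcb1a and Slc51b are left out because their values fall in separate ranges within 2 groups.

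Abcb1a and Slc51b passed with each other, and Abcb1a passed with Abcg5. Their values fell in separate ranges in the WT livers at 24 h and the SIRTintKO livers at 6 h, so no r over all livers is given. WT livers 1 and 2 at 24 h and SIRTintKO livers 2 and 3 at 6 h were high for both Abcb1a and Slc51b, and each liver with over 10 CPM of 1 of them had over 10 CPM of the other. Without those 2 groups r was 0.58 for Abcb1a with Slc51b and 0.44 for Abcb1a with Abcg5, and neither passed in the 25 livers left. For Abcb1a with Abcg5 the size of r was nearly the same with and without those groups, and the call was lost with fewer livers. That call was also lost with the replicate number regressed out. In the WT livers at 6 h r for Abcb1a and Slc51b was 0.84 and rho 0.89 (exact permutation p = 0.0347 and 0.0333, adjusted p = 0.347). In the SIRTintKO livers at 24 h r was 0.77 and rho 0.11, with r = -0.44 without the 2 livers farthest from the median of Abcb1a, and at 0 h r was -0.03 in WT and 0.03 in SIRTintKO livers. SIRTintKO livers 2 and 3 at 6 h were also the highest of their group for Abcb4, Abcb11, Abcg5, Abcg8 and Abcc2. Their cholangiocyte sums of 25.4 and 25.6 CPM were the highest of the group, beside 14.9 to 21.5 CPM in the other 3, and their neutrophil sums of 9.3 and 11.8 CPM lay within the range of the other 3. In the WT livers at 24 h, by contrast, the livers high for Abcb1a and Slc51b were those low for Abcb11 and Abcc2. For Slc51b with Abcc2 r differed between groups, with -0.73 in WT and -0.78 in SIRTintKO livers at 0 h, -0.99 in WT livers at 6 h and 0.02 in SIRTintKO livers at 24 h. The smallest exact permutation p was that in WT livers at 6 h (0.00278, adjusted p = 0.321), where the Slc51b counts lay between 0 and 35.

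Abcb1b and Abcc4 followed no other transporter past the threshold over the 34 livers. The r of Abcb1b with the other 9 lay between -0.25 and 0.08, and in untreated WT livers alone it had r = 0.89 and rho = 0.94 with Abcb1a (exact permutation p = 0.0236 and 0.0167, adjusted p = 0.321), at levels of about 1 CPM and with shared words as above. Abcc4 had r = -0.44 with Abcb4 (permutation adjusted p = 0.125), the pair that passed under the alternatives named above.

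**Figure D4:**
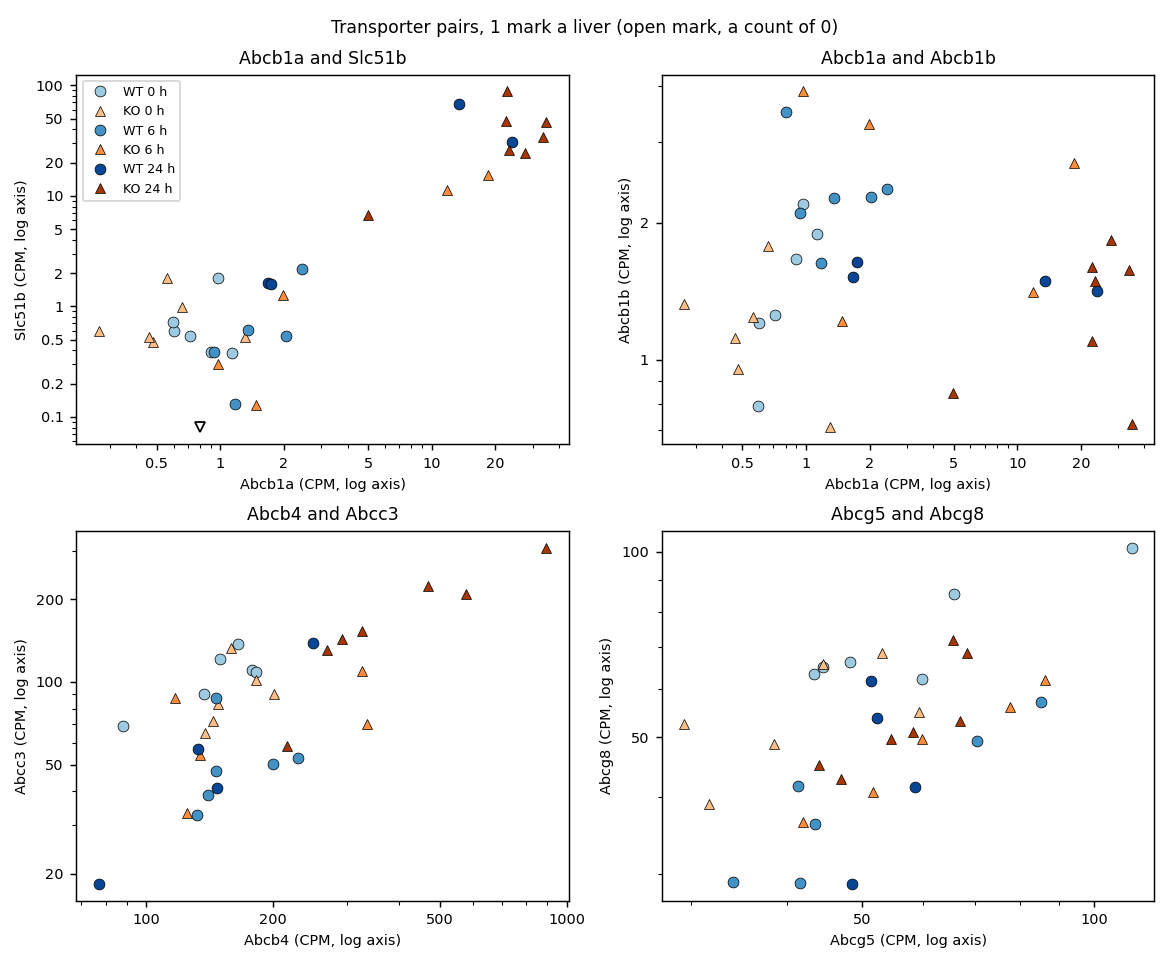
Pairs of transporters with 1 mark per liver, both axes in CPM on a log scale; circles are WT and triangles SIRTintKO (KO) livers, and the open mark has a Slc51b count of 0. High Abcb1a goes with high Slc51b and not with high Abcb1b, and Abcb4 with Abcc3 and Abcg5 with Abcg8 form single bands.

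Genes most like each transporter were ranked by r of deviations over the 34 livers among the genes with a mean of at least 5 CPM, and they were chosen for that r, so no test is given. For Abcg5 and Abcg8 the first of 9186 genes was the other subunit of the exporter (r = 0.75). For Abcb4 they were Tlcd4 (0.85), Gclc, the catalytic subunit of the enzyme that starts glutathione synthesis (0.81), and Slc25a10, the mitochondrial dicarboxylate carrier (0.80). For Abcc3 they were Galk1, galactokinase (0.78), Serpinb6b (0.75) and Vnn3, a pantetheinase (0.75). Abcb11 was nearest to the acyl-CoA synthetase Acsm5 (0.89) and the hydroxysteroid dehydrogenase Hsd3b3 (0.87), and Abcc2 to Gpd1, cytosolic glycerol-3-phosphate dehydrogenase (0.90), Gm5524 (0.87) and Gucd1 (0.87). Abcb1a was nearest to Camk2d, Tm4sf4 and Nid1, and Slc51b to Fyb2, Camk2d and Slc20a1, a phosphate carrier. Abcc4 was nearest to the endothelial receptor Robo4 (0.64) and Abcb1b to Il10rb (0.59), the 2 lowest values of r among the genes ranked first.

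Of 20 further genes of efflux and bile flow, 18 were tested. At 6 h 0 rose and 5 fell in WT livers (beside 37.4% of all genes past the test in either direction), and 2 rose and 5 fell in SIRTintKO livers (38.4%). At 24 h 3 rose and 5 fell in WT livers (34.1%), and 7 rose and 7 fell in SIRTintKO livers (50.2%). The water channel Aqp8 of the canalicular membrane fell in both genotypes at 6 h, by 4.58 in WT and 3.55 in SIRTintKO livers on the log2 scale (adjusted p = 1.17e-10 and 2.26e-08). Between genotypes at 24 h 1 was higher and 0 lower, beside 5.81% of all genes, a share that 1 in 18 is near. It was Aqp1, a water channel of endothelium and bile ducts, with 60.4 ± 19.6 CPM (SD, n = 7) in SIRTintKO and 28.1 ± 10.7 CPM (SD, n = 4) in WT livers, a log2 difference of 1.10 (adjusted p = 0.0103).

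Of 15 receptors and transcription factors that act on transporter genes, 14 were tested, and 1 differed between genotypes at 24 h, which is near the 5.81% of all genes. Nfe2l2 (NRF2), the factor of the antioxidant response, was at 49.6 ± 13.6 CPM (SD, n = 7) in SIRTintKO and 29.5 ± 8.24 CPM (SD, n = 4) in WT livers, a log2 difference of 0.75 (adjusted p = 0.0273). The bile acid receptor Nr1h4 (FXR) fell at 24 h by 0.88 in WT livers (adjusted p = 0.025) and by 1.10 in SIRTintKO livers (adjusted p = 0.000692), with a difference between genotypes of -0.12 (adjusted p = 0.84). Of the 14, 3 rose and 4 fell in WT livers at 6 h (37.4% of all genes past the test) and 2 and 2 in SIRTintKO livers (38.4%). At 24 h 0 rose and 1 fell in WT livers (34.1%), and 1 rose and 4 fell in SIRTintKO livers (50.2%). At 0 h and 6 h, and in the interactions, 0 genes of either list passed between genotypes.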

How the data were processed

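Bulk RNA-seq of livers was analysed. Per gene, the table the authors deposited holds expected counts from Salmon, run after STAR within the nf-core RNA-seq pipeline (build GRCm39 per the submitters' processing notes), from stranded mRNA libraries, with no normalization. Counts were rounded. Of 35 deposited columns, 1 matched no label and was not used. The symbols hold 0 letters x, and 1255 were restored through gene identifiers, a correction chosen after first results. With edgeR 4.0.16 in R 4.3.3, libraries were scaled by TMM, filtered with filterByExpr, and fitted by quasi-likelihood with 1 mean per genotype and time over all 34 livers, and 11 comparisons were tested. CPM used TMM sizes, and log2 CPM a prior count of 2. Fold changes carry 95% intervals from the fit.

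Pairs were tested with 100000 two-sided permutations of livers within groups, and within groups of at least 6 by exact permutation. The transporters, lists and tests were chosen with earlier results of these data known. All transporters, list genes past the test between genotypes at 24 h, and the 3 genes most alike were named by rule, except a gene that is not reported here; Aqp8 and Nr1h4 were chosen after their values were seen. Nothing says that livers of a group shared a litter or batch, but the library numbers at 24 h form separate runs, as given above. Replicate numbers did not pair libraries: 6 of 76 same-numbered pairs had a correlation of deviations over 0.1. No libraries in a group looked alike within sampling noise. Fits were tested on simulated data. Alternatives were DESeq2 1.42.0, other scalings and filters, fewer samples, the replicate block and leaving out each library. Counting error alone was covered by the floor of 3 counts.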

Additional observations from a re-analysis of the deposited data

Results flagged for a closer look

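Of 60 sets of values, 1 for each transporter in each group, 7 had a liver far from the rest of its group by Dixon's test at the 95% level, which flags about 1 in 20 groups by chance. In untreated WT livers, liver 2 was highest for Abcg5 (112 CPM, the next at 65.7) and for Slc51b (1.79 CPM, the next at 0.726). In WT livers at 6 h, liver 2 was highest for Abcc3 (87.2 CPM, the next at 53) and liver 3 for Slc51b (2.18 CPM, the next at 0.613). In SIRTintKO livers at 24 h, liver 1 was highest for Abcc2 (270.6 CPM, the next at 192), liver 6 was highest for Abcc4 (5.91 CPM, the next at 3.08), and liver 5 was lowest for Abcb1a (4.97 CPM, the next at 22.5). No difference between genotypes in the change from 0 h passed the test for a transporter.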

How the results depend on the processing

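No called log2 fold change of a transporter and no called correlation changed sign under an alternative. A filter that asks for 10 counts in each of the libraries leaves out Abcb1a, Abcc4 and Slc51b. It gave 3 transporters past the test in SIRTintKO livers at 6 h, and 3 in WT and 3 in SIRTintKO livers at 24 h. From 6 to 24 h it gave 0 (WT) and 3 (SIRTintKO). With only the groups compared in the fit, 6 passed in WT livers at 6 h (2 higher and 4 lower) and 6 in SIRTintKO livers (4 higher and 2 lower). The calls gained there were Abcb1a and Abcb1b in WT livers and Abcg5 in SIRTintKO livers. In that fit 3 passed in WT livers at 24 h, 2 in SIRTintKO livers from 6 to 24 h and 0 between genotypes at 24 h. The calls lost there were Abcb11 and Abcg8 in WT livers at 24 h, and Abcb4, Abcb1a and Abcb1b in SIRTintKO livers from 6 to 24 h. Between genotypes, Abcb4 and Abcc3 were lost. The cause was not tested. The study's fold threshold left 2 (WT) and 3 (SIRTintKO) at 6 h and 3 and 3 at 24 h. The replicate block gave 4 and 4 at 6 h, 6 and 5 at 24 h, 2 and 5 from 6 to 24 h, and 2 between genotypes at 24 h. It lost Slc51b in SIRTintKO livers at 6 h and gained Abcc3 in WT livers at 24 h (-1.06, adjusted p = 0.0429). Leaving out each library gave 4 to 5 (WT) and 4 to 6 (SIRTintKO) at 6 h, 3 to 5 and 4 to 6 at 24 h, 1 to 3 and 3 to 7 from 6 to 24 h, 1 to 2 between genotypes at 24 h, 0 to 1 for the interaction at 24 h, and 0 to 0 for the other 3 comparisons. Pairs past the test numbered 4 to 7 with each library left out, 5 with the replicate number regressed out, 5 with the hepatocyte marker level regressed out, and 3 and 2 in the subsets of 25 and 18 livers, chosen after seeing the data. Of these, 1 of the 2 in the 18 livers was negative, as was 1 of 6 with deviations divided by the group SD and 1 of 7 without the SIRTintKO livers at 24 h. Pairs in 1 group numbered 0 under each alternative. Depth limits Abcb1a, Abcb1b, Abcc4 and Slc51b in untreated livers most.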
